A study of Mus musculus with 6 samples.

Results

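The 10 genes described here encode the thioredoxin system and the peroxiredoxins of the mouse. They are *Txn1*, *Txn2*, *Txnrd1*, *Txnrd2*, *Prdx1*, *Prdx2*, *Prdx3*, *Prdx4*, *Prdx5* and *Prdx6*. They were chosen by function and found by symbol among the 53465 Ensembl genes of the deposited count table, which held all 10. Transcripts were sequenced from 6 pools of M II oocytes, of which 3 had matured in vitro without quercetin (control) and 3 with 10 μM quercetin, a plant flavonol. All pools came from female Kunming (KM) mice aged 9 to 10 months, primed with PMSG, and each pool combined 15 oocytes of 3 mice after 16 h of culture. Quercetin was dissolved in DMSO, and whether the control medium carried DMSO is not given in the sources used here. Nor do they say whether pools came from separate mice, so p-values measure only the spread between these pools. A pool is a bulk sample, in which fewer oocytes with a transcript and less transcript per oocyte cannot be told apart.

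Peroxiredoxins are abundant enzymes that reduce hydrogen peroxide and organic peroxides with a reactive cysteine. In most of them the oxidized cysteine forms a disulfide that thioredoxin reduces, and thioredoxin reductase then restores thioredoxin with electrons from NADPH. The chain exists in separate compartments. TXN1, TXNRD1, PRDX1, PRDX2 and PRDX6 work mainly in the cytosol, TXN2, TXNRD2 and PRDX3 in mitochondria, PRDX4 in the endoplasmic reticulum (ER), and PRDX5 in several of these. A fully grown oocyte is transcriptionally quiet during maturation, so its transcript levels reflect mostly stored maternal RNA.

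The coding sequence around the reactive residues is shown because it separates the classes. Bases were taken from the GENCODE M21 transcripts (GRCm38), read 5′ to 3′ in the coding direction, with the catalytic codon in capitals. In both thioredoxins a pair of cysteine codons is marked, at codon 32 of *Txn1* (chr4:57951815-57951844, minus strand, exon 2) and codon 90 of *Txn2* (chr15:77924645-77927699, minus strand, joined across exons 2 and 3), each number giving the first of the pair.
Txn1: tctgctacgtggTGTggacctTGCaaaatg
Txn2: catgcacagtggTGTggccccTGCaagatc

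In the peroxiredoxins the peroxide-reducing cysteine codon is marked, at codon 52 in *Prdx1* (chr4:116691811-116691837, plus strand, exon 3), 51 in *Prdx2* (chr8:84970471-84970497, plus strand, exon 3), 109 in *Prdx3*, 127 in *Prdx4*, 96 in *Prdx5* and 47 in *Prdx6* (chr1:161247356-161247382, minus strand, exon 2). The windows of *Prdx3*, *Prdx4* and *Prdx5* each join 2 exons.
Prdx1: tttacttttgtgTGTcccacggagatc
Prdx2: ttcacttttgttTGCcccacggagatc
Prdx3: ttcacatttgtgTGTcctacagaaatt
Prdx4: ttcacctttgtgTGTccaactgaaatc
Prdx5: tttacacctggcTGTtctaagacccac
Prdx6: tttaccccagtgTGCaccacagaactt

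*Prdx1* to *Prdx4* also carry a resolving cysteine codon, which supplies the partner of the disulfide, near the end of the protein. It lies at codon 173 in *Prdx1*, 172 in *Prdx2*, 230 in *Prdx3* and 248 in *Prdx4*. Only these genes were searched for a resolving cysteine codon, and *Prdx5* was not.
Prdx1: catggtgaagtgTGTccagctggctgg
Prdx2: catggggaagtcTGCcctgctggctgg
Prdx3: catggagaagtcTGCccagccaactgg
Prdx4: catggagaagtcTGCcctgctggctgg

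The reductases carry a selenocysteine as the last residue but one, encoded by TGA, otherwise a stop codon, at codon 498 of *Txnrd1* (chr10:82896025-82896042, plus strand, exon 14) and codon 526 of *Txnrd2* (chr16:18477760-18477777, plus strand, exon 17). It was at codon 614 of the paralogue *Txnrd3*, a reductase known from the testis (chr6:89674777-89674794, plus strand, exon 16).
Txnrd1: cagtctggctgcTGAggt
Txnrd2: gtgactggttgcTGAggc
Txnrd3: cagaaaggctgcTGAggc

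Coding sequences of the peroxiredoxins were 58.4% to 70.8% identical over their aligned bases, and no 31-base word was shared between any of the 10 members. Some members did share words with pseudogenes. Of the 31-base words of *Prdx1*, 15.2% also occurred in transcripts of other annotated genes, most of them in *Gm21399* and *Gm7204*. *Gm21399* held 8.35% to 10.3% as many reads as *Prdx1* in every pool, and *Gm7204* 0.527% to 0.909%. For *Prdx2* the share of words was 7.36%, and the pseudogene *Tdpx-ps1* held 7.501% to 8.75% as many reads. For *Txn1* it was 6.95%, shared with *Txn-ps1*, which had at most 3 counts in any pool. How reads that match several genes were counted is not given in the sources used here, so the levels of these genes and of their pseudogenes are uncertain, and their part in the results was not tested. *Prdx6b*, a close copy of *Prdx6*, had 0 counts in all pools.

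Total counts ran from 7880467 to 9938743 per pool, at which the 3 counts that a count of 0 still allows correspond to 0.328 to 0.375 CPM (reads scaled to a common library size). This limit covers counting error only, because copies made by PCR were not marked as such. CPM values of genes below use TMM-scaled library sizes. The 10 oocyte markers, among them *Zp3* and *Gdf9*, summed to 16790 to 20130 CPM per control pool and to 19020 to 20480 CPM per quercetin pool. Of 13 cumulus and granulosa markers, which summed to 74.1 to 92.6 and 95.3 to 97.3 CPM, 4 were at 0 in all pools (*Amh*, *Amhr2*, *Foxl2* and *Ptx3*). Most of this sum came from *Cyp19a1*, with 486 to 692 counts per pool, then *Nr5a2* (96 to 146) and *Has2* (14 to 49). *Tnfaip6* and *Hsd17b1* had 2 to 8 counts in each quercetin pool and 0 in each control. Means went the other way for *Ptgs2* (2.08 CPM in controls, 1.31 CPM with quercetin) and *Fshr* (1.33 and 1.01 CPM). The groups overlapped for both, and for *Has2*, *Nr5a2*, *Inha* and *Inhba*. Blood and immune markers (5 genes) summed to 3.14 to 3.84 and 3.50 to 3.76 CPM with both globin genes at 0. Stroma and endothelium markers (6 genes) summed to 32.7 to 37.9 and 34.2 to 40.25 CPM, most of it from *Pecam1*, with *Col1a1*, *Col1a2* and *Cdh5* at 0.

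The first question was at what level each transcript was read in the libraries of M II oocytes. *Prdx1* stood far above the rest. It was the gene with the 35th highest mean CPM in the whole table, and held 0.316% to 0.5015% of all counts of a pool and 82.7% to 90.5% of the summed CPM of the 10 genes. Genes were compared by CPM per kb of their principal transcript, averaged over the 6 pools. *Prdx1* reached 4339 CPM per kb, 17.2-fold above *Prdx2* at 252.8 CPM per kb, and *Prdx2* lay 5.55-fold above *Prdx5* at 45.5 CPM per kb. The pools of these 3 genes did not overlap.

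Below them came *Txn1* at 29.2 CPM per kb and *Txn2* at 26.3 CPM per kb, whose pools overlapped, and *Prdx6* at 12.05 CPM per kb, whose pools overlapped those of *Txn2*. *Txnrd1* followed at 3.79 and *Prdx3* at 3.315 CPM per kb, again with overlapping pools, then *Prdx4* at 0.665 and *Txnrd2* at 0.0406 CPM per kb. With the length of all annotated exons in place of the principal transcript, *Prdx1* was at 1250 and *Prdx2* at 124.3 CPM per kb, a 10.1-fold difference. By that length *Txn2* was at 8.11 CPM per kb, below every pool of *Txn1*, while *Txn1* passed above *Prdx5* with overlapping pools and *Prdx3* above *Txnrd1*. *Prdx3* was a small part of the family, with 0.0660% to 0.199% of the summed CPM of the 6 peroxiredoxins per pool. The mitochondrial reductase was the least represented gene of all.

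**Figure D1:**
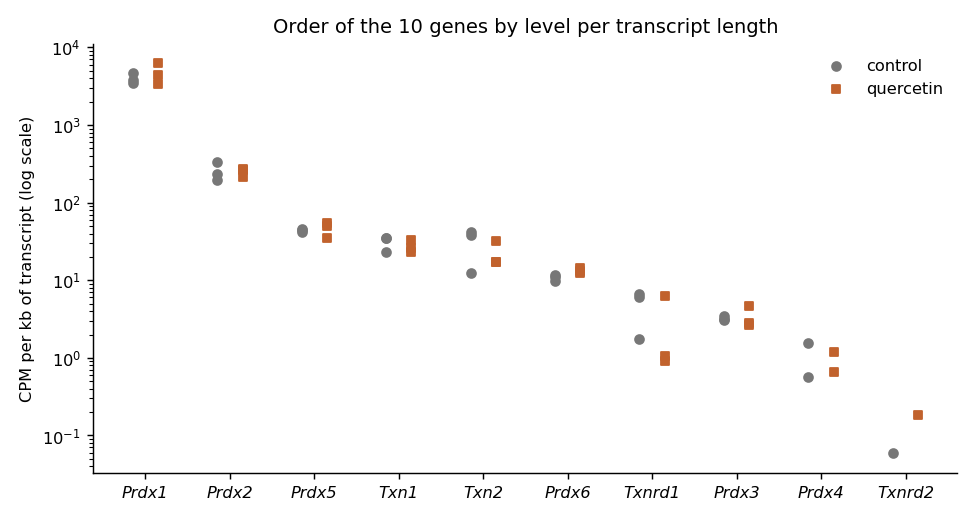
Level of each of the 10 genes in CPM per kb of its principal transcript (vertical axis, log scale), with 1 point per pool for 3 control and 3 quercetin pools and pools at 0 counts (Prdx4, Txnrd2) left off the log axis. Prdx1 lies at 3429 to 6214 CPM per kb, above every pool of every other gene.

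The second question was whether the genes differed between quercetin and control pools. A gene was called where edgeR's quasi-likelihood test gave an adjusted p below 0.05 and the levels differed more than 2-fold. No member was called, and no other of the 11842 tested genes (0%). At an unadjusted p under 0.05 there were 0 of the 8 tested members, against 4.03% of all tested genes. Among the fits without 1 pool, these shares moved most without quercetin replicate 3, to 12.8% of genes and 1 member (*Txnrd1*). Without control replicate 2 they moved to 1.98% of genes and 1 member (*Txn2*). DESeq2, edgeR's likelihood ratio test and limma-voom also had 0 members at an unadjusted p under 0.05, with 1.76%, 3.54% and 4.56% of genes. *Txnrd2* and *Prdx4* did not pass the filter on low counts in edgeR's quasi-likelihood fit, and were among the 10 members that DESeq2 and the fit without a filter included. By the test's point estimates 4 members were higher and 4 lower with quercetin, as were 5490 and 6352 of all tested genes. The median log2 fold change was 0.011 against -0.026 over all tested genes. Scaling by library size only moved the median of all genes to -0.11 and left 2 members higher and 6 lower, against 4101 and 7741 of all tested genes. The groups did not overlap for 1 of the 8 tested members, *Prdx6*, where 5.42% of all tested genes were likewise higher in every quercetin pool and 5.17% lower in every one.

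**Figure D2:**
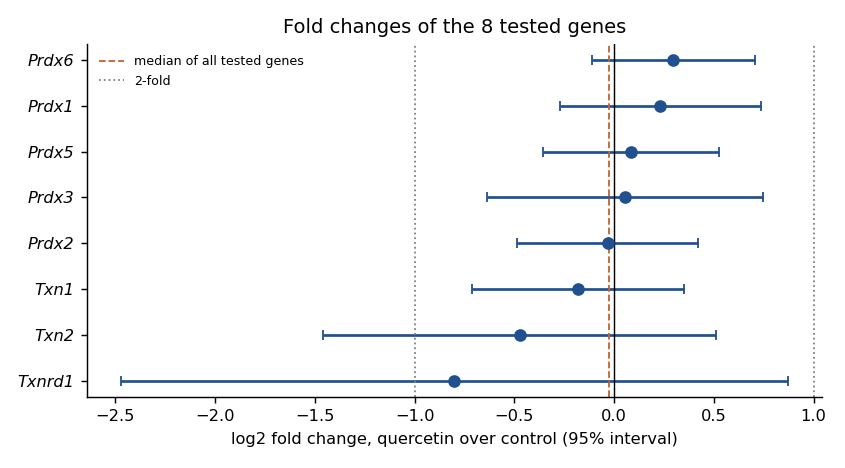
Log2 fold change of quercetin over control with its 95% interval (horizontal axis) for the 8 tested genes from edgeR's quasi-likelihood fit, with a dashed line at the median of all tested genes and dotted lines at 2-fold. All 8 intervals span 0, and those of Txnrd1 and Txn2 are the widest.

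Among the thioredoxins, *Txn1* (ENSMUSG00000028367, chromosome 4 from 57943373 to 57956411), the cytosolic thioredoxin, was counted 217, 303 and 331 times in the controls and 220, 316 and 206 times with quercetin. These are 32.6 ± 7.20 and 28.7 ± 5.30 CPM (SD, n = 3), and the groups overlapped, with control replicate 1 among the low pools. Its log2 fold change was -0.18 (95% interval -0.71 to 0.35, adjusted p = 0.988 in edgeR's test). *Txn2* (ENSMUSG00000005354, chromosome 15 from 77915047 to 77929006), its mitochondrial counterpart, was counted 438, 133 and 482 times in the controls and 178, 202 and 353 times with quercetin. Control replicate 2 was the lowest pool of all and the other 2 controls the highest, so the groups overlapped. The means were 39.7 ± 20.7 and 28.6 ± 11.1 CPM (SD, n = 3), and the log2 fold change was -0.47 (95% interval -1.46 to 0.51, adjusted p = 0.988 in edgeR's test). Leaving out 1 pool at a time gave log2 fold changes from -0.85 without control replicate 2 (unadjusted p = 0.0252, adjusted p = 1.00 in edgeR's test) to -0.17 without control replicate 3 (unadjusted p = 0.7275). It was -0.84 without quercetin replicate 3 and -0.29 without control replicate 1.

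The reductases were low. *Txnrd1* (ENSMUSG00000020250, chromosome 10 from 82833951 to 82897712), which reduces TXN1, was counted 198, 48 and 179 times in the controls and 28, 28 and 179 times with quercetin. In each group the pools fell into high and low values, with control replicates 1 and 3 and quercetin replicate 3 at 20.1 to 22.15 CPM and the other 3 pools at 3.06 to 5.75 CPM. The group means were 15.99 ± 8.93 and 9.19 ± 10.2 CPM (SD, n = 3), and the log2 fold change was -0.80 with a 95% interval from -2.47 to 0.87 (adjusted p = 0.988 in edgeR's test, two-sided exact permutation test p = 0.3). Without quercetin replicate 3 the log2 fold change became -2.28 (unadjusted p = 0.00466, adjusted p = 0.2375 in edgeR's test), and without quercetin replicate 2 it was -0.38. *Txnrd2* (ENSMUSG00000075704, chromosome 16 from 18426384 to 18479073), the mitochondrial reductase, was counted 1, 0 and 0 times in the controls and 0, 0 and 3 times with quercetin. No pool was above 3 counts, so a difference was not detectable at this depth.

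The low pools of *Txnrd1* were also the low pools of *Txn2*, namely control replicate 2 and quercetin replicates 1 and 2. Across the 6 pools the log2 CPM of both genes correlated with Pearson's r = 0.881, as a description of 6 libraries that share their preparation. Values of this size were not particular to this pair. Between the other tested members r ran from -0.890 (*Prdx3* with *Prdx5*) to 0.852 (*Prdx1* with *Prdx5*). The other members did not follow the split of *Txnrd1* and *Txn2* throughout. *Prdx3* was highest in quercetin replicate 3 and lowest in quercetin replicates 1 and 2, and *Prdx5* had its highest values in the latter pools. The ratio of *Txn1* to *Txnrd1* reads ranged from 1.10 to 11.3 between pools. Only 1.545% of all tested genes had a wider spread within groups than *Txnrd1* (pooled SD of 1.30 in log2 CPM), and 7.355% a wider spread than *Txn2* (0.778). The 3 pools with low *Txnrd1* had totals of 7880467, 8465142 and 9938743 counts, and the other 3 had 8671210, 8905681 and 8109613.

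**Figure D3:**
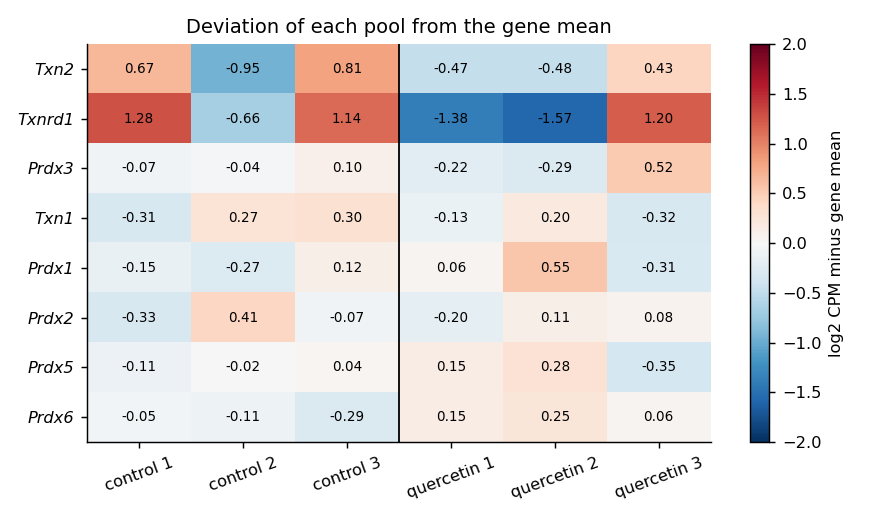
Deviation of each pool from the mean of the gene in log2 CPM (colour and printed values) for the 8 tested genes, with control pools left and quercetin pools right of the line. Txnrd1 and Txn2 are both below their mean in control 2, quercetin 1 and quercetin 2, and both above it in the other 3 pools.

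Of the cytosolic peroxiredoxins, *Prdx1* (ENSMUSG00000028691, chromosome 4 from 116685544 to 116700822) was counted 29958, 25749 and 36214 times in the controls and 31043, 49840 and 25629 times with quercetin. Quercetin replicate 2 was the highest pool and quercetin replicate 3 the lowest, in CPM as in counts. The means of 3499 ± 504.5 and 4111 ± 1238 CPM (SD, n = 3) gave a log2 fold change of 0.23 (95% interval -0.27 to 0.73, adjusted p = 0.988 in edgeR's test). Without quercetin replicate 2 it was -0.022.

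*Prdx2* (ENSMUSG00000005161, chromosome 8 from 84969587 to 84974834), best known from red blood cells, was counted 2664, 4146 and 3172 times in the controls and 2603, 3703 and 3362 times with quercetin. The quercetin pools lay within the range of the controls, at 375 ± 43.4 against 383.5 ± 102 CPM (SD, n = 3). Its log2 fold change was -0.033 (95% interval -0.49 to 0.42, adjusted p = 0.998 in edgeR's test), and 11.5% of its exon length overlaps *Junb* and *Rnaseh2a* on the other strand. *Prdx1* held 6.21 to 13.5 times as many reads as *Prdx2*, with the lowest ratios in control replicate 2 and quercetin replicate 3.

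*Prdx6* (ENSMUSG00000026701, chromosome 1 from 161240112 to 161251219), which lacks a resolving cysteine and uses glutathione rather than thioredoxin, was counted 247, 221 and 208 times in the controls and 253, 310 and 253 times with quercetin. In CPM, control pools reached 27.6, 26.5 and 23.3 and quercetin pools 31.6, 33.9 and 29.7, so all quercetin pools exceeded all controls, by TMM as by library size. The means of 25.8 ± 2.23 and 31.7 ± 2.11 CPM (SD, n = 3) gave a log2 fold change of 0.30 (standard error 0.18, 95% interval -0.11 to 0.71), with an adjusted p = 0.988 in edgeR's test. The two-sided exact permutation test gave p = 0.1, the smallest that 3 pools against 3 allow. Any gene whose groups do not overlap gets this value, so it adds nothing to that observation. Over the fits that left out 1 pool, the log2 fold change ran from 0.24 to 0.35. The sign is fixed by the groups not overlapping. Its spread within groups was 0.112 in log2 CPM, narrower than that of 95.65% of tested genes. The summed cumulus and granulosa markers given above, mostly *Cyp19a1*, were also higher in each quercetin pool than in each control pool in TMM-scaled CPM. By library size only the sums overlapped, while *Cyp19a1* alone stayed higher in every quercetin pool. The part of these markers in the difference of *Prdx6* was not tested.

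*Prdx3* (ENSMUSG00000024997, chromosome 19 from 60864051 to 60874556), the main peroxidase of the mitochondrial matrix, was counted 41, 39 and 46 times in the controls and 33, 36 and 59 times with quercetin. The quercetin pools lay on both sides of the controls, at 4.99 ± 1.67 against 4.81 ± 0.3085 CPM (SD, n = 3), and the log2 fold change was 0.054 (95% interval -0.64 to 0.75). *Prdx5* (ENSMUSG00000024953, chromosome 19 from 6906697 to 6910106), found in mitochondria, peroxisomes and cytosol, was counted 470, 470 and 522 times in the controls and 507, 633 and 382 times with quercetin. It too spread to both sides, at 59.1 ± 12.7 against 55.8 ± 3.02 CPM (SD, n = 3), and the log2 fold change was 0.083 (95% interval -0.36 to 0.52). Of its exon length, 19.1% overlaps *Trmt112* on the other strand, and whether counting used the strand is not given in the sources used here. The adjusted p-values of both genes were at least 0.993 in edgeR's quasi-likelihood test.

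*Prdx4* (ENSMUSG00000025289, chromosome X from 155323918 to 155340754), the peroxidase of the ER, was counted 0, 13 and 5 times in the controls and 0, 6 and 10 times with quercetin. In each group replicate 1 was at 0, which allows up to 0.336 CPM in control replicate 1 and 0.375 CPM in quercetin replicate 1. These were also the pools with the fewest counts of the oocyte gene *Zp2*, 1990 and 1045 against 5601 to 12980 in the others. The oocyte markers *Zp1*, *Zp3*, *Nlrp5* and *Bmp15* were likewise lowest there, but *Gdf9*, *Dazl*, *Oosp1*, *Mos* and *Kit* were not. *Gdf9* had its most counts, 59906, in quercetin replicate 1. The part of these markers in the counts of *Prdx4* was not tested. Fitted without the filter, its log2 fold change was -0.16 with a 95% interval from -2.46 to 2.13 (adjusted p = 1.00 in edgeR's test).

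**Figure D4:**
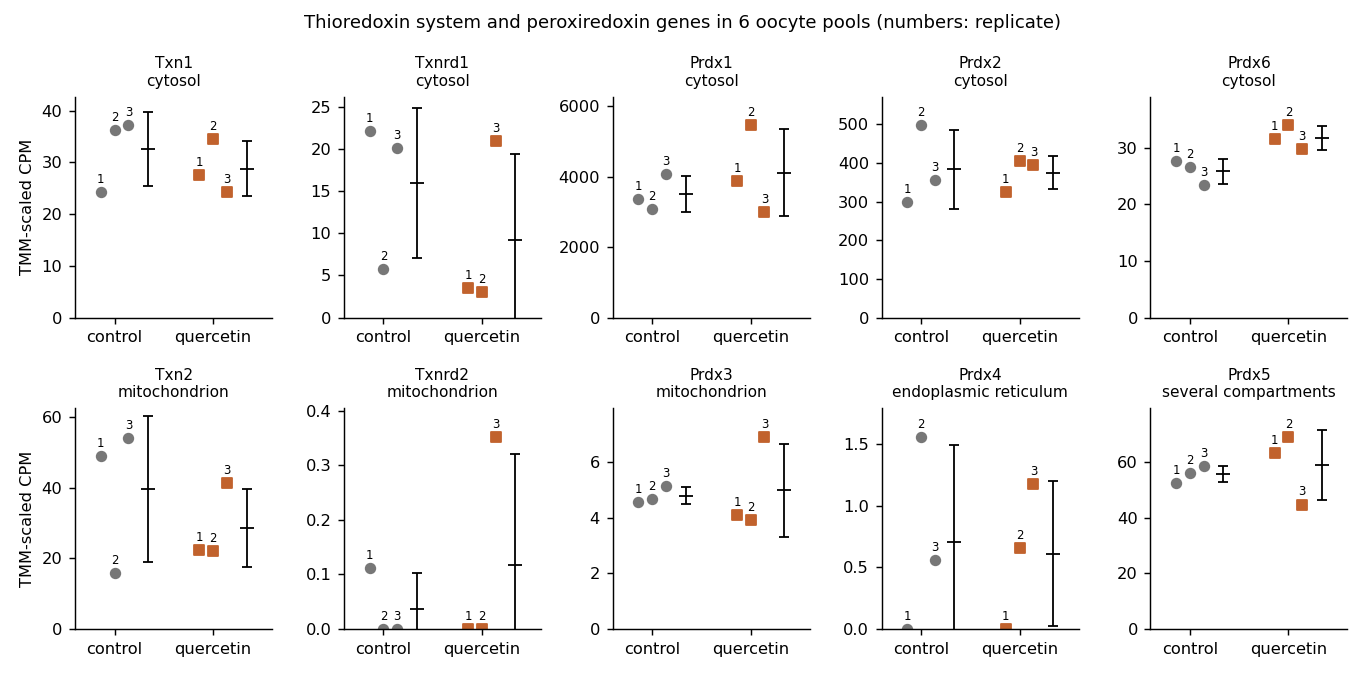
TMM-scaled CPM (vertical axes, each starting at 0) of the 10 genes in 3 control pools (circles) and 3 quercetin pools (squares), numbered by replicate, with the mean and SD of each group beside the points and bars cut off at 0. Prdx6 is the only panel of a tested gene where the groups do not overlap, at 23.3 to 27.6 and 29.7 to 33.9 CPM.

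By compartment, the 5 cytosolic genes summed to 3723, 3651 and 4498 CPM per control pool and to 4264, 5926 and 3476 CPM per quercetin pool. The sum followed *Prdx1*, and without it the cytosolic genes came to 372.0, 565.4 and 436.3 CPM per control pool and to 387.6, 476.4 and 469.3 CPM per quercetin pool. The 3 mitochondrial genes summed to 53.7, 20.6 and 59.2 CPM per control pool and to 26.35, 26.02 and 48.7 CPM per quercetin pool, mostly from *Txn2*. The groups overlapped in each of these sums, and no test was made on them. *Prdx5*, found in several compartments, was in none of them. Its means of 55.8 CPM in controls and 59.1 CPM with quercetin exceeded those of the mitochondrial sum, 44.5 and 33.7 CPM. The log2 ratio of quercetin to control was 0.20 for the cytosolic sum, -0.043 without *Prdx1* and -0.40 for the mitochondrial sum. Leaving out 1 pool, the cytosolic ratio ran from -0.032 without quercetin replicate 2 to 0.36 without quercetin replicate 3. Without *Prdx1* it ran from -0.17 without control replicate 1 to 0.14 without control replicate 2. The mitochondrial ratio ran from -0.77 without quercetin replicate 3 to -0.14 without control replicate 3.

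Promoters (250 bases before to 50 after the start, RefSeq, GRCm38.p6) were listed for 9 of the 10 genes, with 11 starts. *Prdx6* had no entry and was not searched. They were searched on both strands for TGACNNNGC, the core of the antioxidant response element through which NRF2 acts. It was found in 2 of the 11, once in *Prdx1* and once in 1 of the 3 promoters of *Txnrd1*, and in 12.4% of all 32851 promoters. A match is a description of letters only, and binding was not measured.

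Further genes of the pathway were described in 7 lists of 56 genes in all, of which 45 were tested. None was called by the adjusted criteria. At an unadjusted p under 0.05, 2 were higher and 1 was lower with quercetin, where 2.14% of all tested genes were higher and 1.89% lower. The groups did not overlap for 3 higher and 3 lower genes, against 10.6% of tested genes in either direction. The median log2 fold change of the 45 genes was 0.031, and -0.053 when scaled by library size only.

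Among 15 genes of thioredoxin-fold proteins and partners, 14 were tested, with a median of -0.076, 5 higher and 9 lower by the estimate. *Txnip*, which binds and inhibits thioredoxin, had the most counts of the list, from 7168 to 10021 per pool, or 941 ± 122 CPM (SD, n = 3) without and 1005 ± 80.4 CPM with quercetin, and 19.4% of its exon length overlaps *Gm15441* on the other strand. *Txndc9*, a thioredoxin-like cofactor of protein folding, was counted 702, 548 and 718 times in the controls and 335, 418 and 518 times with quercetin. In CPM all quercetin pools lay below all controls, with a log2 fold change of -0.60 (standard error 0.19, unadjusted p = 0.0122, adjusted p = 0.988 in edgeR's test). *Tmx3*, a disulfide isomerase of the ER membrane, was counted 211, 203 and 238 times in the controls and 215, 273 and 232 times with quercetin, which parted by TMM but overlapped by library size only. *Txnrd3* was counted 79, 66 and 72 times in the controls and 44, 31 and 70 times with quercetin, with overlapping groups. *Nxn*, with 18, 15 and 14 against 9, 8 and 8 counts, lay under the 5 CPM set for naming and was chosen after its values were seen, to complete the genes whose groups did not overlap.

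The list for recycling of overoxidized peroxiredoxin held *Srxn1* and the sestrins. *Srxn1*, the sulfiredoxin that reverses this oxidation, had 0 counts in every pool. The sestrins were listed beside it, and their part in this step was not tested. Of them *Sesn3* had the most counts, with 151, 132 and 92 reads in the controls and 127, 158 and 46 after quercetin. Enzymes that draw on thioredoxin were present, and all 5 tested of 7 were higher by the estimate, with a median log2 fold change of 0.44. With library size only 4 of 5 were higher, with a median of 0.34. Among all 11842 tested genes 5490 were higher, and 4101 with library size only. At an unadjusted p under 0.05 in edgeR's test only 1 of the 5 was higher, *Rrm2*. *Rrm2*, a subunit of ribonucleotide reductase, was counted 2159, 1644 and 1995 times in the controls and 2531, 2888 and 2256 times with quercetin, and all quercetin pools exceeded all controls in CPM. Its log2 fold change was 0.44 (standard error 0.15, unadjusted p = 0.0150, adjusted p = 0.988 in edgeR's test). The alternative subunit *Rrm2b* had the most counts of the list, and its log2 fold change was 0.031. Of the glutaredoxins and glutathione reductase, 4 of 5 were tested, with a median of 0.058, and *Glrx* had the most counts, at 131.5 ± 13.3 and 149 ± 3.91 CPM (SD, n = 3).

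In the ER list 8 of 12 were tested, 4 higher and 4 lower, with a median log2 fold change of 0.061. *P4hb*, a protein disulfide isomerase, had the most counts, at 259.5 ± 38.8 and 296 ± 18.7 CPM (SD, n = 3), and the oxidase *Ero1lb* had 65.45 ± 2.49 and 58.7 ± 2.85 CPM, groups that parted by TMM but overlapped by library size only. The ER peroxidases *Gpx7* and *Gpx8* were at 0 in all pools, so *Prdx4* was the only ER peroxidase among these with any count.

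For selenocysteine, needed by the reductases, all 6 genes were tested, with a median of -0.030. *Sepsecs*, which makes selenocysteine on its tRNA, had the most counts but very uneven ones, with 51, 718 and 773 reads in the controls and 897, 49 and 997 after quercetin. Control replicate 1 and quercetin replicate 2 were the low pools, a different set from that of *Txnrd1*. Of the 7 genes that supply NADPH, 6 were tested, 3 higher and 3 lower. *Idh1*, the cytosolic isocitrate dehydrogenase, was counted 833, 600 and 857 times in the controls and 907, 1138 and 903 times with quercetin, and all quercetin pools exceeded all controls in CPM. Its log2 fold change was 0.40 (standard error 0.16, unadjusted p = 0.0394, adjusted p = 0.988 in edgeR's test). *Me1* had the most counts of the list, and *Idh2*, the mitochondrial isocitrate dehydrogenase, had at most 3. *Nnt*, which makes NADPH in mitochondria and was chosen after its values were seen, was counted 111, 0 and 66 times in the controls and 208, 0 and 81 times with quercetin, and 47.5% of its exon length overlaps a second annotated copy of the same name.

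**Figure D5:**
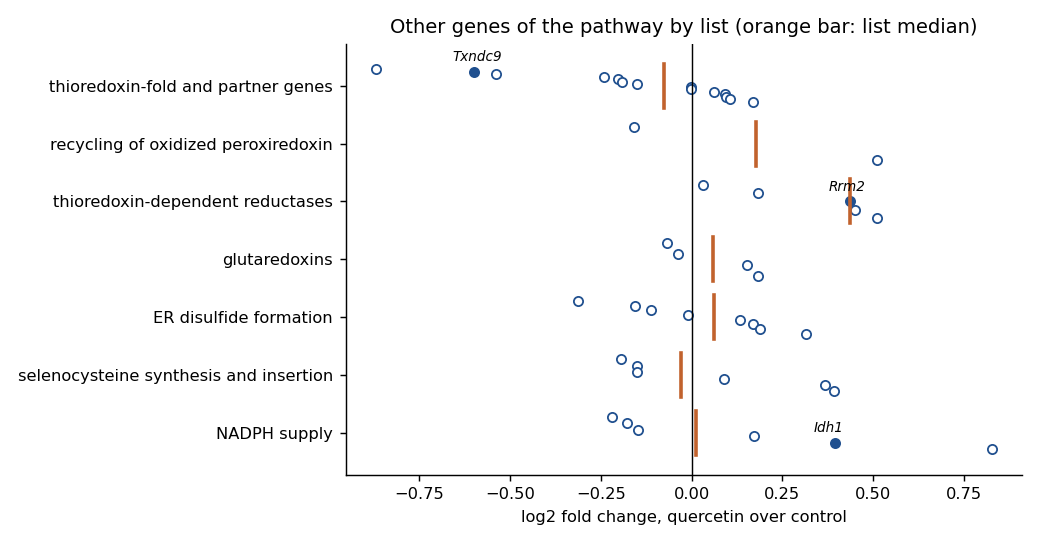
Log2 fold change of quercetin over control (horizontal axis) for the 45 tested genes of 7 pathway lists. Filled points have an unadjusted p under 0.05 (Txndc9, Rrm2 and Idh1), open points do not, and orange bars are list medians, which run from -0.076 to 0.44.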

How the data were processed

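RNA of 6 oocyte pools was amplified and sequenced (smart-seq HT Kit, Illumina). Per the methods of the study, the authors aligned reads with Hisat2 to GRCm38.91, while the submitters' processing notes name CASAVA 1.8 and TopHat2 2.0.6. The authors deposited raw counts per Ensembl gene, without normalization. The counting program is not given in the sources used here. Symbols matched 53274 of 53465 identifiers, and positions are from GENCODE M21 (GRCm38).

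Of 24476 genes with a count, 11842 passed filterByExpr (minimum count 10). Counts were scaled by TMM and compared by the quasi-likelihood test of edgeR 4.0.16 (R 4.3.3) without covariates, adjusting p-values across the whole tested set by Benjamini-Hochberg. Adjusted p-values in the text are from this test unless another is named. The 95% intervals use its standard error. Single genes were also compared by exact permutation of log2 CPM (prior count 2, scipy 1.17.1). The fit was tested on simulated data.

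Alternatives were DESeq2 1.42.0, the likelihood ratio test, limma-voom (limma 3.58.1), other scalings and filters, leaving out each pool, and a replicate block. Members and lists were chosen with earlier results of these data known. Of the lists, genes were named with at least 5 CPM and an unadjusted p under 0.05 or groups that do not overlap, plus the gene with the highest CPM of each list and the paralogues *Prdx6b* and *Txnrd3*.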

Additional observations from a re-analysis of the deposited data

How the results depend on the processing

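Each fit included 8 to 10 of the 10 genes, and of those included 0 were called under each of the 15 alternatives. *Txnrd2* was included only by DESeq2, which gave it no adjusted p, and by the fit without the low-count filter. *Prdx4* was included by these and by some fits without 1 pool, and DESeq2 gave it no adjusted p either. Over all genes, 0 calls became 11 with DESeq2, 16 with edgeR's likelihood ratio test, 3 without the low-count filter, 0 to 7 with each pool left out, and 477 at an unadjusted p under 0.05, where the pathway lists gave 3. With library size only, the log2 fold change was -0.010 for *Prdx3* and -0.014 for *Prdx5*. With each pool left out it ran from -0.022 to 0.42 for *Prdx1*, -0.18 to 0.20 for *Prdx2*, -0.25 to 0.20 for *Prdx3* and -0.044 to 0.25 for *Prdx5*. The signs of *Txn1*, *Txn2* and *Txnrd1* were kept in the alternatives run, with *Txn2* from -0.85 to -0.17 and *Txnrd1* from -2.28 to -0.38 over the fits without 1 pool. Levels per kb by all annotated exons were chosen as an alternative after seeing the data.

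Pools of both groups carry numbers 1 to 3, and no pairing is given in the sources used here. Deviations of same-numbered pools from the group means correlated by 0.296, 0.101 and -0.0303. Those of differently numbered pools correlated by -0.299 to 0.176. Control replicate 2 correlated best with quercetin replicate 3, and control replicate 1 with quercetin replicate 1, the highest value of all. *Nnt* was at 0 in both replicate 2 pools and *Prdx4* in both replicate 1 pools. These values do not settle whether the numbers mark pairs, and the main fit did not use them as pairs. With the replicate block 0 genes and 0 members were called, 492 genes had an unadjusted p under 0.05, and the log2 fold change of *Txnrd1* was -1.10 (adjusted p = 0.906 in edgeR's test).

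With 3 pools a group, changes inside the 95% intervals cannot be told from none, and *Txnrd2*, with at most 3 counts per pool, gives no usable comparison.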
